A study of Mus musculus with 2 samples.

Results

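The TRIM family of ubiquitin ligases was followed in monocytes from the spleen of ICR mice, an outbred stock, at 8 weeks after a sham operation or after a 5/6 nephrectomy (5/6Nx). The latter, in which a large share of the kidney mass is taken out, models chronic kidney disease. Both cell samples came from a flow cytometry sort on CD11b and Ly6C, and the labels give no transgene, drug or other allele for either group. The strain, cell type and time after operation were the same in both, and the number of mice pooled or used per array was not found in the labels. Each group has 1 Agilent array of 1 colour. The family was taken as every gene whose name on the array is Trim followed by digits and an optional letter, which gave 66 of 24813 genes on the array, read by 121 of 56603 probes. All 66 names are current RefSeq symbols.

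TRIM proteins carry a RING domain, B-boxes and a coiled coil, followed by a C-terminal domain that differs between subfamilies and selects the target. Most of them transfer ubiquitin to other proteins through the RING domain. In monocytes and macrophages several members are known as interferon-induced restriction factors or as regulators of the sensors of foreign RNA and DNA, whereas others act on chromatin, on microtubules or in muscle.

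Levels are given as the processed intensity of the array, and a difference is the log2 difference 5/6Nx minus sham after each array was divided by its 75th percentile, which was 442.1 for sham and 547.5 for 5/6Nx. With 1 array per group there was no replicate check and no test across animals. The error after ± is the signal error that the scanner software gives for a spot, carried to the log2 difference, and covers neither animals nor sorting. A gene counts as measured when at least 1 probe was well above background on both arrays, and its brightest such probe stands for it. Of the 66 TRIM genes 45 (68.2%) were measured, as were 63.3% of all genes.

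Among the 45 measured TRIM genes 12 were higher by at least 2-fold in 5/6Nx (26.7%), against 12.3% of all 15715 measured genes, and 8 were lower by at least 2-fold (17.8%), against 10.9% of all genes. The split depended on the scaling, with 16 higher and 3 lower after spike-in scaling, which moved the median of all genes up by 0.43 and put 21.2% of all genes higher and 5.47% lower. After the normexp background correction 11 were higher and 2 lower, against 7.41% and 7.87% of all genes. The other 25 differed by less. The median difference was 0.12 for the TRIM genes and -0.12 for all genes, and -0.026 and -0.27 after median scaling. At least 4-fold higher were 7 of the 45 TRIM genes, against 715 of all 15715 measured genes (4.55%). The family thus held genes on both sides, from Trim30d at 3.22 to Trim47 at -4.21. Of the 45 differences 27 were positive, against 6799 of those of all 15715 measured genes.

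**Figure D1:**
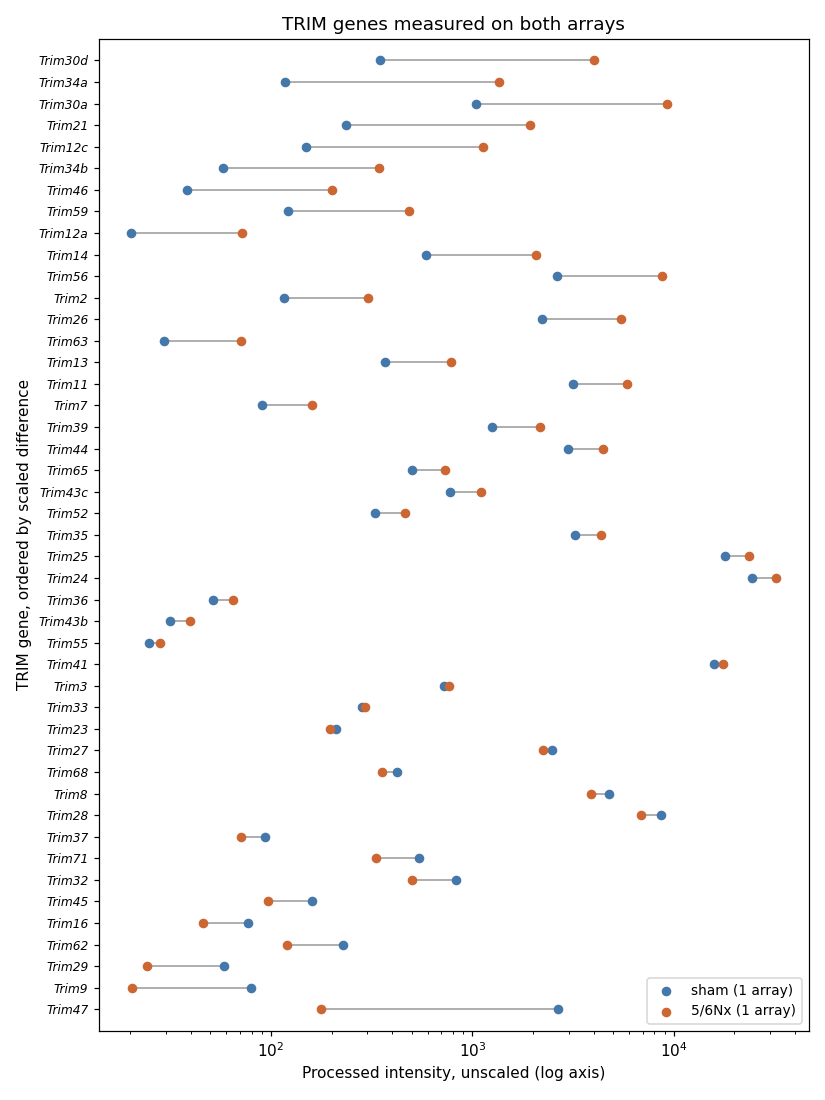
Processed intensity (log axis, unscaled) of the 45 TRIM genes measured on both arrays, ordered by the scaled log2 difference. Blue points are the sham array and orange points the 5/6Nx array, 1 array each, joined by a line. Trim30d stands at the top and Trim47 at the bottom, and most genes in the middle have both points close together.

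Markers of other cells differed between the same arrays, where 12.3% of all measured genes were at least 2-fold higher and 10.9% lower. Of 13 measured T cell markers 11 were higher in 5/6Nx by at least 2-fold and none lower, and the summed intensity of the list was 3571 in sham and 51608 in 5/6Nx. These sums and those below are unscaled, unlike the counts, and the 75th percentiles were 442.1 for sham and 547.5 for 5/6Nx. Sums that lie close together, such as those of the neutrophil list, thus do not show a rise. All 5 measured NK cell markers were higher and the other 7 were detected in 5/6Nx alone, with summed intensities of 369.9 and 50085. Cd8a, Ncr1 and Klrk1 were not well above background on the sham array. B cell markers had 2 of 7 higher, with sums of 1514 and 3229, and neutrophil markers 3 of 6 higher and 1 lower, with sums of 14071 and 15943. Plasmacytoid dendritic cell markers had 1 of 5 higher, with sums of 105398 and 152422. Erythroid markers had 1 of 2 higher, with sums of 318.3 and 1856, and Hbb-b1 and Alas2 were not well above background on either array. All 10 monocyte markers were measured, 2 higher and 1 lower, with a median of -0.11. Ly6c2, a gene of the antigen used in the sort, differed by 1.98, and Cx3cr1, a receptor of patrolling monocytes, by -4.24. The part of these marker differences in those of the TRIM genes was not tested, and in bulk RNA fewer cells of a type and less RNA per cell cannot be told apart.

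The 12 higher genes were led by a block of related genes on chromosome 7. Mice carry there an expanded set of TRIM genes, relatives of the primate restriction factor TRIM5, which binds retroviral capsids. The set is known for a C-terminal PRY-SPRY domain, which was not checked here gene by gene. The array holds 9 genes of this set within 253.6 kb (chr7:111382909-111636478, mm9). All 6 of them that were measured were higher in 5/6Nx by 2-fold or more, with a median of 2.73. The 39 measured TRIM genes outside the set had a median of 0.03, with 6 higher (15.4%) and 8 lower (20.5%).

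Trim30d had an intensity of 346.6 in sham and 3999 in 5/6Nx, a difference of 3.22 ± 0.20 or 9.32-fold. Its other probe, 57.2 against 1099, differed by 3.96. Both probes of this gene were thus far brighter in 5/6Nx. Trim30a, whose protein is known to dampen NF-kappaB signalling by way of the adaptors Tab2 and Tab3, read 1046 and 9247, a difference of 2.84 ± 0.20 or 7.14-fold. Its other probes differed by 2.78 and 2.47. Trim30a was the most intense probe of the set on both arrays. Trim30b was not well above background on either array, at 2.94 and 7.35.

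Trim34a read 117.9 in sham and 1350 in 5/6Nx, which differed by 3.21 ± 0.21 or 9.25-fold. Its 4 probes ranged from 2.21 to 3.21, all on the higher side. Trim34b, its close paralog, read 57.9 and 343.0 on a single probe, a difference of 2.26 ± 0.22. The paralogs could be told apart only in part, because the Trim34a probe with the smallest difference also lists a Trim34b transcript among its targets.

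Trim12c read 148.9 and 1132, a difference of 2.62 ± 0.21 or 6.14-fold, and its second probe differed by 1.70. Trim12a was dim, at 20.2 and 71.9, and differed by 1.52 ± 0.32. Its other 3 probes were not well above background on either array, and with the normexp background correction the difference was 0.41. The remaining genes of the set had no value on both arrays. Trim6 was well above background in sham alone, with intensities of 38.3 and 15.5, and was lower in 5/6Nx by at least 3.06-fold. Such a bound sets the bright value against the higher of the dim value and the lowest intensity called well above background on that array, which was 12.8 for sham and 13.7 for 5/6Nx. Trim5 was not well above background on either array, at 5.32 and 3.13.

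Probes behind these values are shown because the genes of the set are similar in sequence. They are given 5′ to 3′ as printed on the array, with positions on mm9, and the first and the fifth span 578 and 10529 bases of the genome for their 60 bases, so that they cross splice junctions. The Trim30a probe is the one that differed by 2.78, and the Trim30d probe listed first is the one that differed by 3.96.
Trim30a (chr7:111560170-111560747, minus strand): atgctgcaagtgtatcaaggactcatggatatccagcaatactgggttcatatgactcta
Trim30d (chr7:111636419-111636478, minus strand): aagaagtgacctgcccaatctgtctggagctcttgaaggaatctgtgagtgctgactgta
Trim30d (chr7:111620805-111620864, minus strand): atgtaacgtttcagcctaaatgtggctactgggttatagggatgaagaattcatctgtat
Trim12c (chr7:111496596-111496655, minus strand): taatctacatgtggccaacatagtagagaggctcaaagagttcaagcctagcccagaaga
Trim34a and Trim34b (chr7:111398132-111408660, plus strand): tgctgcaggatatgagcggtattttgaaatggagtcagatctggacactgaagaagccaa
Trim34b (chr7:111483842-111483901, plus strand): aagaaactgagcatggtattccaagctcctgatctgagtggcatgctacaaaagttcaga
The Trim34a probe that also lists Trim34b read 46.8 and 267.9, a difference of 2.21 that lies next to the 2.26 of Trim34b. The shared probe cannot say which of the paralogs gave its signal.

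**Figure D2:**
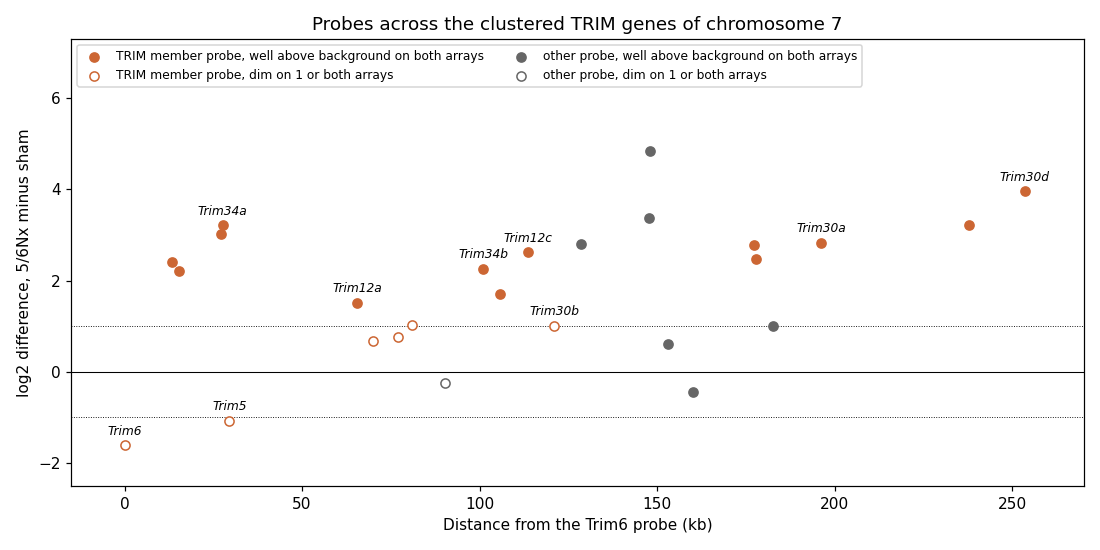
Log2 difference (5/6Nx minus sham) of each probe across the chromosome 7 set, by distance in kb from the Trim6 probe. Orange marks TRIM probes, grey other probes, and open symbols are dim on 1 or both arrays. All 13 TRIM probes that were well above background on both arrays lie above the dotted 2-fold line, whereas the Trim6 and Trim5 probes lie below 0 as open symbols.

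Of the 19 TRIM probes in this stretch 13 were well above background on both arrays, and all 13 were at least 2-fold higher. Between the TRIM probes the array carries 7 probes under other names, which have no gene symbol in common use. Of these 6 were measured and 3 were at least 2-fold higher, with differences of 2.81, 3.36 and 4.84. The other 3 measured probes differed by 0.996, 0.61 and -0.43. Higher signal was thus read by probes without a TRIM name as well, though not by each of them. Gene boundaries were not used, so such a probe can lie within a TRIM gene. The probe that differed by 0.996 lies between Trim30a probes. Trim21, Trim68, Trim3 and Trim28 are the measured TRIM genes on the same chromosome outside the set. Trim21 differed by 2.72, Trim68 by -0.57, Trim3 by -0.23 and Trim28 by -0.64.

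Several genes of the set, though not all, also shared a sequence near their starts. The interferon-stimulated response element, the site bound by the factors that interferon activates, has a core of GAAA repeated after any 2 bases. This core was searched on both strands in RefSeq promoters of GRCm38.p6, from 250 bases before to 50 after each start, and 51 of the 66 TRIM genes had such a promoter. It was present in 9 of the 51 (17.6%), against 3.99% of all genes with a promoter. The 9 were Trim2, Trim5, Trim12a, Trim12c, Trim21, Trim26, Trim30a, Trim30d and Trim34a. Trim6, Trim30b and Trim34b, which also belong to the chromosome 7 set, were not among them. Of the 11 TRIM genes at least 2-fold higher that had a promoter, 7 held the core, against 0 of 6 lower genes and 1 of 15 genes that differed by less than 2-fold. The last of these was Trim26, which lay just under 2-fold at 0.999. A match is a description of the sequence, not a bound site.

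The windows of 30 bases around the core are shown because 6 of these 8 genes were at least 2-fold higher. Each runs 5′ to 3′ on the gene's strand, and capitals mark the core as found, which reads as its reverse complement in all but Trim21.
Trim30a (chr7:104465210-104465239, GRCm38): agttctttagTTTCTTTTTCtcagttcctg
Trim30d (chr7:104507871-104507900, GRCm38): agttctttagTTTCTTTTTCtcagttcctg
Trim12c (chr7:104353359-104353388, GRCm38): agagttgtggTTTCTGTTTCatttccagct
Trim12a (chr7:104315466-104315495, GRCm38): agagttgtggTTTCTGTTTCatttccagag
Trim5 (chr7:104288136-104288165, GRCm38): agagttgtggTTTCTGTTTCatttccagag
Trim34a (chr7:104244457-104244486, GRCm38): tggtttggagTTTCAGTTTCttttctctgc
Trim21 (chr7:102565450-102565479, GRCm38): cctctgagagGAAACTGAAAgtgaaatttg
Trim26 (chr17:36836976-36837005, GRCm38): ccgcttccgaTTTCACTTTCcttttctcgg
The windows of Trim30a and Trim30d are identical, as are those of Trim12a and Trim5, so the paralogs do not count as separate cases. The core began 36 bases before the start in Trim30a, 41 in Trim30d, 29 in Trim12c and 49 in Trim5. In Trim12a and Trim34a it began 10 bases after the annotated start. Trim21 and Trim26 each held a second, overlapping copy, and another annotated start of Trim30a had a copy 2 bases after it. In Trim2, not shown, the core lay 28 bases after the start. Trim5 carried the same window as Trim12a, and its single probe was not well above background on either array. That probe lists no RefSeq transcript among its targets, so it need not read the transcript of this promoter. Trim34b, which differed by 2.26, held no core in this window, which says only that these letters are not there.

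A longer stretch of 150 bases before the start is shown for the pair with the largest differences of the Trim30 genes, with the core in capitals.
Trim30a (chr7:104465194-104465343, GRCm38, minus strand): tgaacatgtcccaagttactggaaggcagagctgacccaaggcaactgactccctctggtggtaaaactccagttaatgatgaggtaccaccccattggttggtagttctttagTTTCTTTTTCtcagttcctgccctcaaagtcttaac
Trim30d (chr7:104507850-104507999, GRCm38, minus strand): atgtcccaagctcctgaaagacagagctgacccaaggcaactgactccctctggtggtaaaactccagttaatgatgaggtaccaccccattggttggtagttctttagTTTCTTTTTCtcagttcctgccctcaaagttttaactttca
Over 145 aligned bases these promoters were 96.6% identical, and each was 64.0% to 64.9% identical to the same stretch of Trim12c. Measured TRIM genes with the core had a median difference of 2.67 (n = 8), and those without it a median of -0.03 (n = 24). These medians, like the counts of TRIM promoters with the core, take each paralog as a gene of its own. Near-identical promoters thus enter more than once, and the genes are not independent cases. Over all measured genes 26.9% of the 464 with the core were at least 2-fold higher, against 11.0% of the 11944 without it. The site of STAT dimers, TTCNNNGAA, was found in 5 of the 51 TRIM promoters (9.8%), against 9.55% of all genes. It was in 1 of the 11 higher genes, Trim46, and in 1 of the 6 lower genes, Trim45. Of the 15 genes under 2-fold 0 held it, and of the 19 not measured on both arrays 3 did.

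TRIM genes known from innate and antiviral signalling outside the chromosome 7 set were split. Of 15 on the list 12 were measured, with a median of 0.16. Of the 12 measured genes 3 were at least 2-fold higher (25%) and none lower, against 12.3% and 10.9% of all measured genes. The largest difference was in Trim21, a cytosolic receptor for antibody that directs bound particles to the proteasome (chr7:109706478-109706537, mm9). It read 235.7 in sham and 1925 in 5/6Nx, a difference of 2.72 ± 0.20 or 6.6-fold. Trim14, an adaptor at mitochondria in the signalling of RNA sensors, read 587.4 and 2061, a difference of 1.502 ± 0.20, and its second measured probe differed by 1.11. Trim56, linked to ubiquitin chains on the DNA-sensing adaptor STING, read 2643 and 8781, a difference of 1.42 ± 0.20. Its other bright probe differed by 1.45 and its dim probe by 0.43. Each of these 3 genes was brighter in 5/6Nx with every measured probe.

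Trim26, which lies in the MHC region of chromosome 17, read 2216 and 5486, a difference of 0.999 ± 0.20. Trim13, anchored in the membrane of the endoplasmic reticulum, read 369.9 and 779.3 and differed by 0.77 ± 0.20. Neither reached 2-fold. Trim25, the ligase that ubiquitinates the RNA sensor RIG-I, was among the brightest TRIM probes, at 17871 and 23651, and differed by only 0.10 ± 0.20, with its 3 probes between 0.10 and 0.42. Its difference was smaller than its error, unlike that of the gene for RIG-I itself, Ddx58, at 4.42 ± 0.20. Trim65, a ligase for the related sensor encoded by Ifih1, read 501.6 and 726.9 and differed by 0.23, with probes on both sides from -0.50 to 0.23.

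The remaining measured genes of this list lay below 0 by less than 2-fold, although Trim23 came to 0.03 and Trim41 to 0.27 with spike-in scaling. Trim8, a regulator of cytokine signalling, read 4765 and 3885 and differed by -0.60 ± 0.20. Trim68 read 423.5 and 354.1 and differed by -0.57, and Trim27 read 2486 and 2238 and differed by -0.46. Trim23, which carries an ARF GTPase domain, read 210.8 and 197.3 and differed by -0.40. Trim41 was bright at 15842 and 17578 and differed by -0.16, with weaker probes down to -1.03. These 5 genes had bright or moderate signal on both arrays. Trim31 was well above background in 5/6Nx alone, at 16.5 against 2.87, which allows a bound of 1.04-fold. Trim38 and Trim40 were not well above background on either array.

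**Figure D3:**
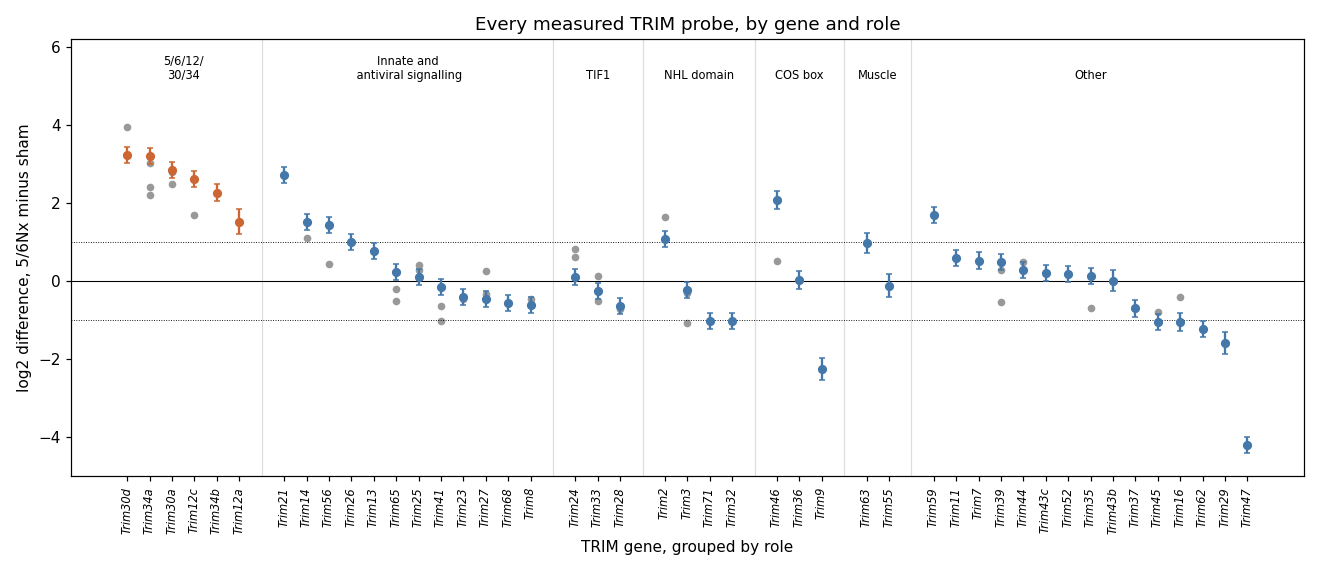
Log2 difference (5/6Nx minus sham) of each measured TRIM probe, by gene and role. Coloured points are the brightest probe of a gene, with the software's signal error as bars, and grey points are its other probes. Dotted lines mark 2-fold, and the Trim62 probe of another name is not drawn. The chromosome 7 set, in orange at the left, lies wholly above the upper line, and the other roles lie on both sides of 0.

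The chromatin co-regulators of the TIF1 group showed no difference of 2-fold, with 3 of 4 measured and a median of -0.25. Trim28, the corepressor recruited by KRAB zinc finger proteins, read 8674 and 6893 and differed by -0.64 ± 0.20. Trim33, a regulator of TGF-beta signalling and of myeloid chromatin, read 282.1 and 293.1 and differed by -0.25 ± 0.20, with probes from -0.52 to 0.13. Trim24 read 24386 and 32237 on its brightest probe and differed by 0.09. That probe is annotated to another transcript than the RefSeq probes, which were dimmer, at 312.0 and 39.6 on the sham array, and differed by 0.61 and 0.83. Trim66 was not well above background on either array.

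Trim47 had the largest difference of the family in the downward direction. Its single probe (chr11:115967143-115967202, mm9) read 2652 in sham and 177.3 in 5/6Nx, a difference of -4.21 ± 0.21 or 18.5-fold. Trim47 is a RING ligase with a PRY-SPRY domain. Trim65 is its neighbour on chromosome 11, with the nearest probe starting at 115983892, and differed by 0.23. The large difference of Trim47 was thus not seen in its neighbour, whose probes lay on both sides of 0.

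The other lower genes were dimmer or closer to 2-fold. Trim9, a brain-enriched ligase of axon guidance, read 79.5 and 20.5 and differed by -2.26 ± 0.29. Trim29, which lacks a RING domain, read 58.6 and 24.1 and differed by -1.59 ± 0.29. Both stood close to background on the 5/6Nx array. Trim62, a regulator of epithelial polarity, read 227.1 and 119.4 and differed by -1.24 ± 0.21. A dim probe that carries another name on the array but a Trim62 transcript accession read 20.25 and 29.97 and differed by 0.26 ± 0.33, and averaged with it the gene differed by -0.49, which ended the call. Trim16 read 76.8 and 45.8 and differed by -1.06, and Trim45, which has a filamin domain, read 160.3 and 96.2 and differed by -1.04. The second probe differed by only -0.41 in Trim16 and -0.80 in Trim45, and averaging the probes ended both calls. The NHL domain genes Trim32, mutated in a muscular dystrophy, and Trim71, an RNA-binding regulator of stem cells, were brighter. Trim32 read 829.3 and 503.0 and differed by -1.03 ± 0.20. Trim71 read 543.7 and 331.6 and differed by -1.02 ± 0.20. Of these 8 genes, Trim47 and Trim9 alone kept at least 2-fold in every alternative setting in which they were measured, Trim9 being too dim for the stricter filter, and the count fell to 2 with the normexp background correction, 3 with spike-in scaling and 4 with the 75th percentile over measured probes.

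Of the higher genes outside the immune lists, Trim46, which organises microtubules in axons, read 38.2 and 200.8 and differed by 2.08 ± 0.23. Its second probe, 25.9 and 45.4, differed by only 0.50. Trim59, a membrane-anchored member, read 121.9 and 485.4 and differed by 1.69 ± 0.21. Trim2, an NHL domain ligase for a neurofilament subunit, read 116.5 and 303.0 and differed by 1.07 ± 0.21, and its second measured probe by 1.64. Trim2 fell under 2-fold in 4 of 11 alternatives, with a lowest value of 0.76. These 3 genes belong to role groups whose other members were not higher by 2-fold, such as Trim3 at -0.23 and Trim36 at 0.03.

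The muscle members Trim63 and Trim55 differed by 0.97 and -0.12 with dim signal, and Trim54 was not well above background. Trim72 was well above background in sham alone, at 15.1 against 9.28, with a bound of 1.37-fold. The erythroid members Trim10 and Trim58 were not well above background on either array. Among genes outside these roles, Trim11 read 3145 and 5870 and differed by 0.59, Trim7 by 0.52, Trim39 by 0.48, Trim44 by 0.27, Trim52 by 0.19 and Trim35 by 0.12. Trim37, a ligase of peroxisomes and centrosomes, read 92.9 and 71.1 and differed by -0.69. Trim43c, from a family of germ-line and embryo genes, was bright on 1 probe, at 772.2 and 1105, and differed by 0.21, while its second probe was not well above background on either array. Trim43b differed by 0.01.

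Trim61 and Trim69 were well above background in 5/6Nx alone, with bounds of 1.16-fold and 1.78-fold. Of all TRIM genes 3 were above background in 5/6Nx alone and 2 in sham alone, Trim6 alone with a bound of at least 2-fold. Of all 2015 genes above background on 1 array only, 28.6% had a bound of at least 2-fold upward and 8.19% downward. A further 16 TRIM genes were not well above background on either array. Besides those named above these were Trim15, Trim17, Trim42, Trim50, Trim60, Trim67, Trim75 and Trim80.

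Probes of one gene did not always agree. Of 23 TRIM genes with several measured probes under their own name on the array, 5 had probes on both sides of 0, and none of the 5 was at least 2-fold apart. Among the 20 genes at least 2-fold apart, 10 had several measured probes, which lay on one side in all 10 and were each at least 2-fold in 6. Trim62 was an exception to both counts once its probe of another name was included, since that probe lay on the other side of 0.

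**Figure D4:**
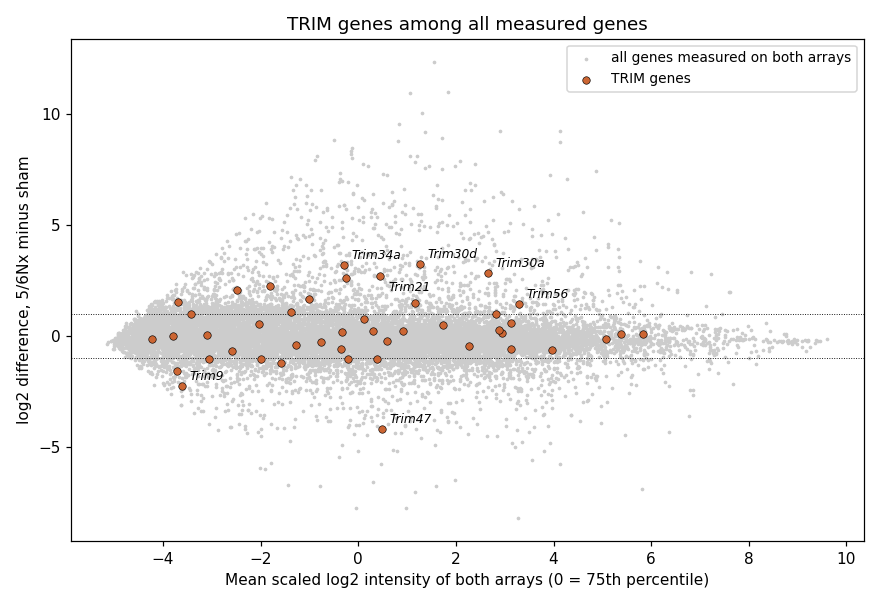
Log2 difference (5/6Nx minus sham) against the mean scaled log2 intensity of both arrays, for all 15715 measured genes (grey) and the 45 TRIM genes (orange). The dotted lines mark 2-fold. The TRIM genes at least 2-fold apart span dim and bright signals, and differences beyond those of Trim30d and Trim47 occur among other genes.

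TRIM family genes that carry another name are no members by the rule and were read from a list of 5. Of these 3 were at least 2-fold higher (60%) and none lower, against 12.3% and 10.9% of all measured genes. This list and the partner lists below were chosen with earlier results of these data known. Mefv, which encodes pyrin, the sensor of an inflammasome, read 2768 and 16775 and differed by 2.29 ± 0.20. Pml, the organiser of nuclear bodies, read 673.5 and 2978 and differed by 1.84 ± 0.20. Mid2, a microtubule-binding ligase, was dim at 23.6 and 84.8 and differed by 1.54 ± 0.29, and its paralog Mid1 differed by 0.93. Bspry differed by -0.22.

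Partners of the TRIM proteins in the sensing of RNA and in interferon signalling were measured in full, with a median of 0.87. Of the 23 genes 11 were at least 2-fold higher (47.8%) and none lower, against 12.3% and 10.9% of all measured genes. The sensor genes Ddx58 and Ifih1 differed by 4.42 and 4.83, and Irf7, the factor that amplifies interferon production, by 7.41. The interferon-activated factors Stat2 and Irf9 differed by 3.43 and 1.87. Unlike these, Mavs, the adaptor below the sensors, differed by -0.98. The receptor genes Ifnar1, Ifnar2, Ifngr1 and Ifngr2 lay between -0.26 and 0.18. Tab2 and Tab3, the targets of Trim30a, differed by 0.21 and -0.26. Nlrp3, an inflammasome sensor, differed by 1.32.

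Genes of ubiquitin and ISG15 conjugation had a median of 0.92. Of the 16 genes 8 were at least 2-fold higher (50%) and none lower, against 12.3% and 10.9% of all measured genes. The ubiquitin-like modifier Isg15 differed by 7.27, its activating enzyme Uba7 by 3.46, its conjugating enzyme Ube2l6 by 2.30, the mouse ligase gene Herc6 by 4.48 and the deconjugating protease Usp18 by 7.26. By contrast the conjugating enzymes that many TRIM ligases use with ubiquitin were close to 0, with Ube2n at 0.14, Ube2v1 at -0.03, Ube2d3 at -0.11 and Ube2d1 at -0.46. Of the other listed proteins that edit or help to build ubiquitin chains, the genes Tnfaip3, Rnf31 and Cyld differed by 3.21, 1.49 and 1.38. Rbck1 at 0.47, Sharpin at 0.44 and Otud7b at -0.19 did not reach 2-fold.

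**Figure D5:**
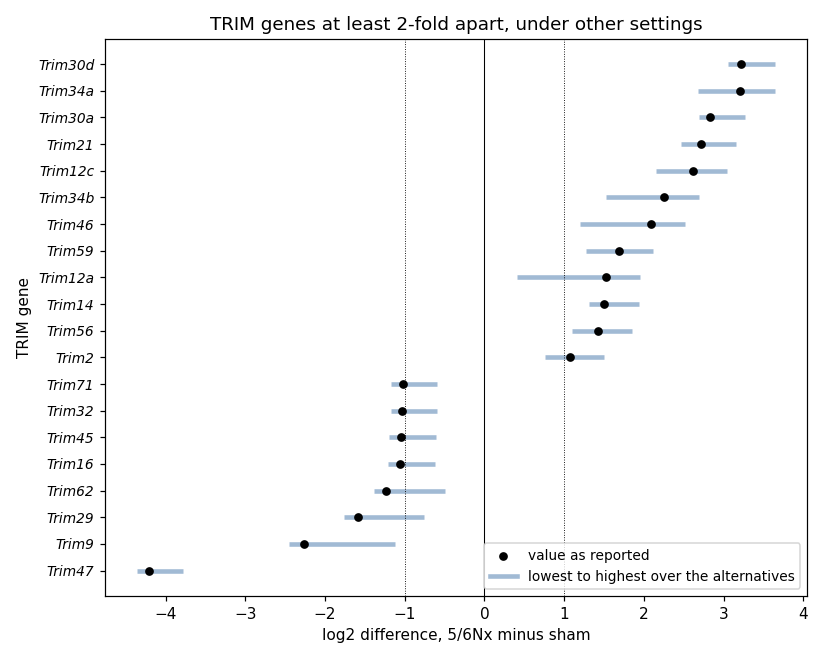
Log2 difference (5/6Nx minus sham) of the 20 TRIM genes at least 2-fold apart. Black points are the values as reported, and blue bars run from the lowest to the highest value over the alternative settings in which the gene was measured. The bars of Trim30d, Trim34a, Trim30a, Trim21 and Trim12c stay above 2, and 6 of the 8 bars on the left cross the dotted 2-fold line.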

How the data were processed

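Per the file headers, the deposited scanner files give, for each spot, a linear intensity made by Agilent Feature Extraction, background-subtracted and detrended within each array, with surrogates for low spots and no scaling between arrays. The files give version 10.7.1.1 of this software and the submitters' processing notes 9.5.1.1. The authors' value table, also linear intensity, was used as an alternative. Its scaling is unknown here.

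Well above background were 63.0% of the 59305 spots in sham and 67.0% in 5/6Nx. Outlier-flagged spots were left out, log2 values of spots of one probe were averaged, and the 75th percentile of each array was subtracted. Other genes were named through RefSeq (GRCm38.p6); 12867 probes matched no RefSeq gene and were left out. Probe positions are mm9 as in the files, where exon and UTR annotation was not used. Spots of one probe differed by an SD of 0.059 (283 bright probes with at least 8 spots). No test was possible with 1 array per group. Genes count as apart at 2-fold.

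Every TRIM gene is accounted for. Intensities are given for genes at least 2-fold apart and for the chromosome 7, innate and TIF1 lists, and genes of other lists were named when at least 2-fold apart or, after their values were seen, for contrast. Members and lists were chosen with earlier results of these data known. Steps were tested on simulated data. Python 3.11.15, numpy 2.4.6, R 4.3.3 and limma 3.58.1 were used.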

Additional observations from a re-analysis of the deposited data

How the results depend on the processing

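Under 12 alternatives, none of the 20 TRIM genes at least 2-fold apart changed sign, and 12 of them, 10 higher and 2 lower, kept 2-fold in every alternative in which they were measured. The exceptions among the higher genes were Trim12a, at 0.41 with normexp, and Trim2. Of the 25 genes under 2-fold, 4 passed it in some alternative, Trim26 in 6 of them. The count of higher genes was 12 and came to 5 with the stricter filter on dim probes, which leaves 22 TRIM genes. The count of lower genes was 8 and came to 2 with normexp, 5 with cyclic loess, 3 with spike-in scaling, 4 with the 75th percentile over measured probes, 13 with no filter, 2 with the stricter filter and 5 when probes of a gene were averaged. The median of 0.12 came to -0.026 with median scaling, 0.37 with cyclic loess, 0.55 with spike-in scaling, 0.19 with the percentile over measured probes and 0.22 with the stricter filter. The median of all genes moved too, by -0.15 with median scaling, 0.15 with cyclic loess and 0.43 with spike-in scaling, and the TRIM median stayed 0.21 to 0.42 above it in every setting. With spike-in scaling 84.2% of the TRIM genes apart were higher and with normexp 84.6%, in place of 12 of 20, and over all genes 79.5% and 48.5%, in place of 52.8%. The median of the chromosome 7 set ran from 2.26 to 3.16. No paired analysis was possible because each group has 1 array. Dim probes such as Trim12a, Trim9 and Trim29 depend most on the background correction.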
